A study of Homo sapiens with 4 samples.

Results

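The coactivators that carry the transcriptional output of steroid and other nuclear receptors were followed on 4 microarrays of 2 head and neck squamous carcinoma cell lines transfected with miR-489 or miR-504. The genes were NCOA3 and its paralogues NCOA1 and NCOA2, the acetyltransferases EP300 and CREBBP, the arginine methyltransferase CARM1 and the corepressor NCOR1. Members were all non-control spots whose gene name on the array was one of these 7 symbols. This gave 14 of the 41000 probes on the array, in 32 of 43376 spots, for 6 of the 7 genes. No spot carried the name CARM1, so CARM1 was not measured here. NCOA3 was selected on its log2 ratio on the FaDu miR-489 array, since the study lists it among the genes lower there. Its values on that array are therefore given as a description, without a test. The other genes were taken as its relatives and partners, with earlier results of these data known.

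FaDu is a line from a hypopharyngeal squamous cell carcinoma and HSC3 a line from a squamous carcinoma of the tongue. Each array held the total RNA of miR-489 or miR-504 transfectants, labelled with Cy5, beside Cy3-labelled RNA of that line after a control miRNA, all at 72 h. There was 1 array for each of the 4 combinations, the dyes were not swapped, and all arrays were scanned on 1 slide. Whether the control RNA on both arrays of a line came from the same transfection is not stated, so the Cy3 readings of a line may not be independent. Each value below is the log2 ratio of transfectant over control, centred on each array so that the median well-measured probe is at 0. A value of −1 is 2-fold lower than the control, and 1 is 2-fold higher. The centring left a trend with signal. The median ratio was −0.42 to −0.30 in the dimmest quartile of measured probes on the 4 arrays, and 0.13 to 0.19 in the brightest. Dim probes therefore tend to read low against 0. A channel counted as measured where the scanner software marked it well above background. With 1 array in each condition, a ratio on an array has no replicate and no test, and in extracts of whole cultures fewer cells with a transcript and less transcript in each cell cannot be told apart. Among probes spotted repeatedly, the SD of the log2 ratio between spots, pooled as a root mean square over probes, was 0.0887 to 0.108 on the 4 arrays. It covers the spotting and scanning error of an array alone. Of the squamous epithelial markers looked up, all 10 found on the array were well above background in control RNA on all 4 arrays. Of 8 markers of leukocytes, endothelium and fibroblasts, at most 1 was above background in control RNA on any array.

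Nuclear receptors bind their ligand, then DNA, and then recruit coactivators through a short leucine-rich motif. The p160 coactivators, encoded by NCOA1, NCOA2 and NCOA3, act as the platform: they bring in the histone acetyltransferases p300 and CBP, encoded by EP300 and CREBBP, and the methyltransferase CARM1, which loosen chromatin at the target gene. NCOR1 does the reverse, since it brings histone deacetylases to receptors that have no activating ligand. NCOA3, also known as AIB1, is amplified in some breast cancers and acts in growth factor signalling as well as with receptors.

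A miRNA pairs with transcripts mainly through its seed, bases 2 to 8 from its 5′ end. The mature sequences are shown because the comparison between the miRNAs rests on their having different seeds. The seed is in capitals, and the sequences are those of RefSeq (GRCh38.p14), where MIR489 lies on the minus strand of chromosome 7 and MIR504 on the minus strand of chromosome X. The labels do not say which arm of miR-504 was transfected, so both are given.
hsa-miR-489-3p: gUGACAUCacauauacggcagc
hsa-miR-504-5p: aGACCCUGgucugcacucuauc
hsa-miR-504-3p: gGGAGUGCagggcaggguuuc
The 3 seeds differ from each other. The study lists 2 miR-489 target sites for NCOA3, predicted with the TargetScan database. Whether NCOA3 or its partners hold matches to these seeds was not examined here.

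NCOA3 had lower signal than the control after miR-489 in both lines on all 3 of its probes, and lay nearer to the control after miR-504. All 3 probes (A_23_P313560, A_23_P313568 and A_23_P120442) carry the accession NM_181659. They lie on chromosome 20 within 833 bases of each other by the coordinates in the scanner files, whose genome build is not stated there. They therefore report on neighbouring stretches of the same transcript and are not independent measurements.

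The brightest, A_23_P313560, read a net intensity of 2019.5 in control and 774 in miR-489 transfectants of FaDu cells, and 1533 and 750 in HSC3 cells. With miR-504 it read 1700.5 in control and 2184 in transfectants of FaDu cells, and 2046 and 1620.5 in HSC3 cells. The Cy5 channel was brighter than Cy3 for the median probe on every array, by 0.45 to 0.65 on the log2 scale, and this offset was removed by the centring. After it, the log2 ratios were −1.96 in FaDu and −1.62 in HSC3 cells with miR-489, and −0.29 in FaDu and −0.78 in HSC3 cells with miR-504. Against control this is 3.90-fold and 3.07-fold lower after miR-489, and 1.22-fold and 1.72-fold lower after miR-504. Both miR-489 values lay below both miR-504 values, but the FaDu miR-489 value is the one on which NCOA3 was chosen. How many of all probes have this order was not counted.

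**Figure D1:**
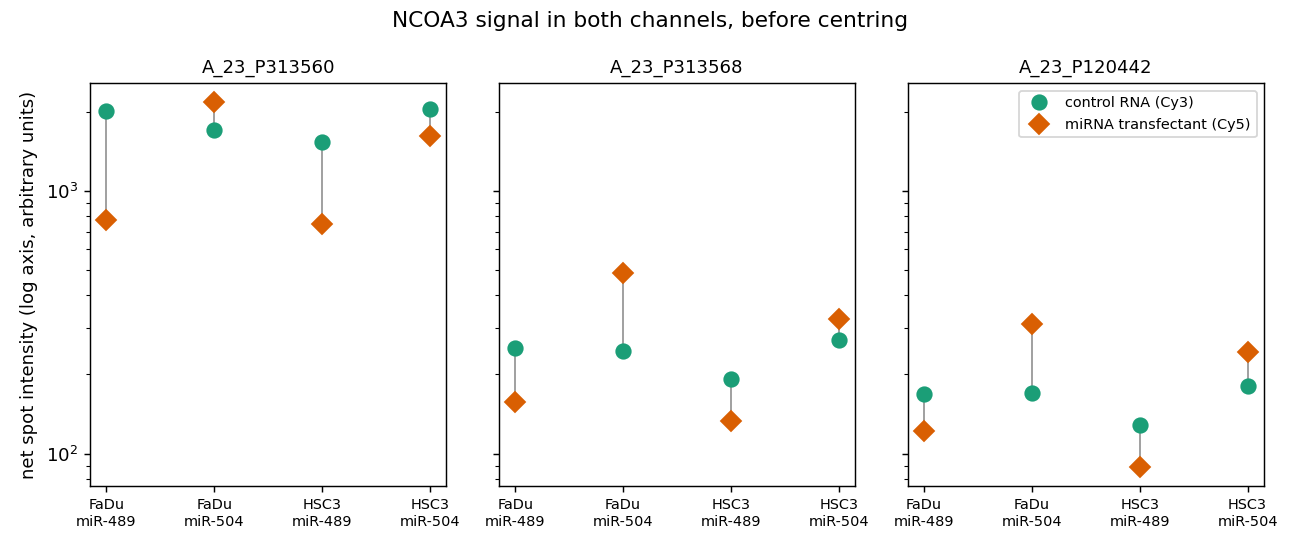
Net spot intensity of the 3 NCOA3 probes (log axis, arbitrary units) in control RNA (circles) and in miRNA transfectants (diamonds) on each of the 4 arrays, before centring, joined by a line for each array. On both miR-489 arrays the transfectant lies below the control for every probe, and on the FaDu miR-504 array it lies above, for example 2184 against 1700.5 for A_23_P313560.

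At the dimmer probes the order was the same, with smaller drops. A_23_P313568 had log2 ratios of −1.26 in FaDu and −1.12 in HSC3 cells after miR-489, and 0.34 and −0.18 after miR-504. A_23_P120442 had −1.06 and −1.12 after miR-489, and 0.21 and −0.018 after miR-504. Their control intensities lay between 128.5 and 271.5, against 1533 to 2046 for the brightest probe. The mean over the 3 probes was −1.43 ± 0.48 (SD between probes, n = 3 probes) on the FaDu miR-489 array and −1.29 ± 0.29 on the HSC3 miR-489 array. It was 0.086 ± 0.33 on the FaDu miR-504 array and −0.33 ± 0.40 on the HSC3 miR-504 array. The probes of NCOA3 thus disagreed among themselves by more than the spot-to-spot SD, with A_23_P313560 the lowest on all 4 arrays.

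For the dimmer probes, whether they passed 2-fold depended on how the ratio was computed. Under the main setting and 7 other ways of computing the ratio, A_23_P313560 was at least 2-fold lower under all 8 on both miR-489 arrays. With normexp correction, without background subtraction, or with normexp and loess, both dimmer probes came out above −1 on both miR-489 arrays. The values nearest to 0 were −0.73 in FaDu and −0.65 in HSC3 cells, for A_23_P120442 with normexp and loess. With loess alone or on the scanner ratios A_23_P120442 in HSC3 cells also fell short of 2-fold, at −0.97 and −0.99. The study words its limit in FaDu cells as under −2-fold. Its listed NCOA3 value, −2.14, equals the scanner ratio of A_23_P313560 expressed as log2, so the limit is read here as a log2 ratio. On the scanner software's log2 ratios in FaDu cells A_23_P313560 stood just inside that limit, while A_23_P313568 at −1.25 and A_23_P120442 at −1.29 stood outside it. In HSC3 cells, on which that choice did not rest, the scanner's value for A_23_P313560 was −1.77.

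Against all probes with control signal above background, 1.02% had a ratio as low as that of A_23_P313560 or lower on the FaDu miR-489 array, and 1.66% on the HSC3 miR-489 array. On the miR-504 arrays the shares were 29.7% in FaDu and 8.76% in HSC3 cells. The dimmer probes lay less far out. After miR-489 the shares were 4.53% (A_23_P313568) and 7.14% (A_23_P120442) in FaDu and 5.77% and 5.73% in HSC3 cells, and after miR-504 they were 76.2% and 67.4% in FaDu and 36.6% and 49.4% in HSC3 cells. Each NCOA3 probe lay further towards the low end after miR-489 than after miR-504 in both lines. NCOA3 was chosen for its low value on the FaDu miR-489 array, so its shares there are a description. Whether the lines differ in this was not tested.

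The difference between the miRNAs within a line removes what both arrays of that line share, such as the orientation of the dyes. Whether they also share the control transfection is not stated. A_23_P313560 was lower after miR-489 than after miR-504 by a log2 difference of −1.67 in FaDu and −0.83 in HSC3 cells. A_23_P313568 differed by −1.60 and −0.94, and A_23_P120442 by −1.27 and −1.10. All were negative under all 8 settings, but the FaDu differences rest on the array on which NCOA3 was selected for a low value, so their sign is a description. The differences in HSC3 cells do not use that array. The share of all probes with a drop of 2-fold or more between the miRNAs in this direction was 2.44% in FaDu cells, 1.79% in HSC3 cells and 0.779% in both. Of the NCOA3 probes, A_23_P120442 passed 2-fold in both lines, but it did so under 6 of the 8 settings in FaDu and 3 in HSC3 cells, where it ranged from −1.10 to −0.63.

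A fit with limma across 20914 probes, with the lines as replicates of each miRNA, gave NCOA3 a log2 difference (miR-489 minus miR-504) of −1.25 ± 0.21 (SE) for A_23_P313560, −1.27 ± 0.20 for A_23_P313568 and −1.19 ± 0.13 for A_23_P120442. These include the FaDu miR-489 array on which NCOA3 was chosen, so they are descriptions. The fit was therefore repeated without that array. It then sets the HSC3 miR-489 array against the mean of the miR-504 arrays of both lines. The miRNA and the cell line cannot be told apart in it. The differences were then −1.08, −1.20 and −1.22 in the same order, against −0.83, −0.94 and −1.10 between the HSC3 arrays alone. With a single array left for miR-489, these values are descriptions too.

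**Figure D2:**
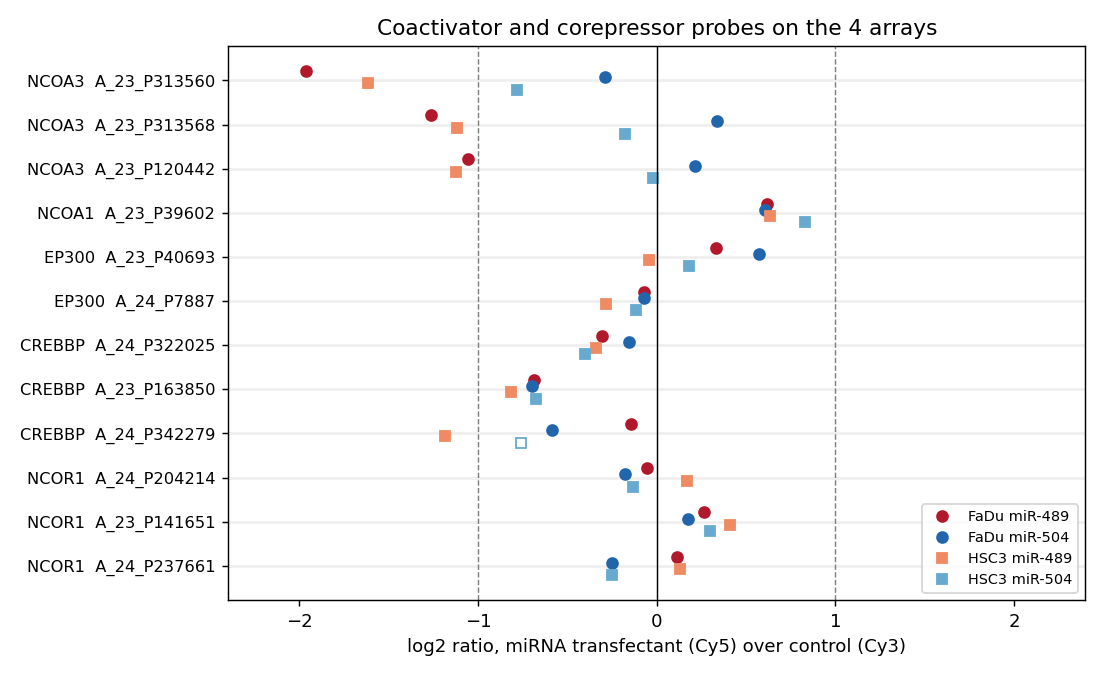
Log2 ratio of transfectant over control for the 12 probes with a ratio, 1 symbol for each array, with dashed lines at 2-fold. The open square marks control signal that was not well above background. NCOA3 lies past 2-fold on both miR-489 arrays, at −1.96 and −1.62 for its brightest probe, while NCOA1 lies between 0.60 and 0.83 on all 4 arrays.

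NCOA1, the p160 paralogue of NCOA3 that had a ratio, stood above the control on every array and hardly differed between the miRNAs. Its probe, A_23_P39602 on chromosome 2, read 131 and 134.5 in FaDu control RNA and 136 and 174 in HSC3 control RNA. In transfectants it read 300.5 (miR-489) and 321 (miR-504) in FaDu cells, and 316.5 and 422 in HSC3 cells. The log2 ratios were 0.62 and 0.60 in FaDu cells and 0.63 and 0.83 in HSC3 cells, in the order miR-489, miR-504. They stayed above 0 under all 8 settings on each array. At least 1.5-fold higher on all 4 arrays, as NCOA1 was, were 5.60% of all probes, but NCOA1 met this under only 2 of the 8 settings. The difference between the miRNAs was −0.093 ± 0.13 (SE), with a 95% CI of −0.42 to 0.23 and an adjusted p of 0.76 in limma. That interval does not include a 2-fold drop.

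NCOA2, the remaining p160 gene, had 1 probe, A_23_P428999 on chromosome 8, that was not well above background in either channel on any array. Its control readings were 9 to 25 and its transfectant readings −0.5 to 23, so no ratio is given. The p160 family could thus be compared for NCOA1 and NCOA3.

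EP300, which encodes the acetyltransferase p300, stayed within 1.5-fold of the control on all arrays. Its probe A_23_P40693 had log2 ratios of 0.33 and 0.57 in FaDu cells and −0.043 and 0.18 in HSC3 cells, in the order miR-489, miR-504. The probe A_24_P7887, spotted 10 times, had −0.071 ± 0.12 and −0.070 ± 0.14 (SD between spots) in FaDu cells and −0.28 ± 0.16 and −0.12 ± 0.20 in HSC3 cells. The last of these rests on 8 spots. Both probes lie on chromosome 22 and start 21779 bases apart, and A_23_P40693 had the higher ratio on each array. The sign of A_24_P7887 turned on every array under 3 of the 8 settings, so no direction is read from it. The differences between the miRNAs were −0.23 (95% CI −0.74 to 0.27, adjusted p = 0.59 in limma) for A_23_P40693 and −0.083 (95% CI −0.40 to 0.24, adjusted p = 0.78) for A_24_P7887.

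CREBBP, the paralogue of EP300 that encodes CBP, read below the control on all arrays, and about equally after either miRNA. The probe A_23_P163850, spotted 10 times, had log2 ratios of −0.68 ± 0.038 and −0.70 ± 0.044 (SD between spots) in FaDu cells and −0.81 ± 0.084 and −0.68 ± 0.080 in HSC3 cells, in the order miR-489, miR-504. It stayed below 0 under all 8 settings. It was at least 1.5-fold lower on all 4 arrays, as were 6.09% of all probes, and met this under 5 of the 8 settings, not with normexp, without subtraction, or with normexp and loess. A_24_P322025, whose start lies 654 bases away on chromosome 16, had −0.30 and −0.16 in FaDu cells and −0.34 and −0.40 in HSC3 cells.

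The dimmest CREBBP probe, A_24_P342279, gave ratios that were spread more widely. It had −0.14 and −0.59 in FaDu cells and −1.19 in HSC3 cells after miR-489, where it read 42.5 in control and 28 in transfectants. With loess the value on that HSC3 array was −0.44. On the HSC3 miR-504 array its control signal was not well above background, so it entered no test. Its sign turned under 3 of the 8 settings on the FaDu miR-489 array and under 2 on the HSC3 miR-504 array. The brighter probes differed between the miRNAs by −0.062 (95% CI −0.35 to 0.23, adjusted p = 0.83 in limma) for A_23_P163850 and −0.043 (95% CI −0.38 to 0.29, adjusted p = 0.90) for A_24_P322025. Neither interval includes a 2-fold difference.

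NCOR1, the corepressor, moved little on any array. A_24_P204214 on chromosome 17 had log2 ratios of −0.056 and −0.18 in FaDu cells and 0.17 and −0.13 in HSC3 cells, in the order miR-489, miR-504. A_23_P141651 had 0.26 and 0.18 in FaDu cells and 0.41 and 0.30 in HSC3 cells, above 0 under all 8 settings. A_24_P237661 had 0.12 and −0.25 in FaDu cells and 0.13 and −0.25 in HSC3 cells, and its sign turned under 2 or 3 of the 8 settings on each array.

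All of these NCOR1 probes read somewhat higher after miR-489 than after miR-504 in both lines, except that the sign of A_23_P141651 in FaDu cells turned under 1 of the 8 settings. The share of all probes with this direction in both lines was not counted. The differences in limma were 0.21 (95% CI −0.11 to 0.54, adjusted p = 0.44) for A_24_P204214, 0.098 (95% CI −0.21 to 0.41, adjusted p = 0.73) for A_23_P141651 and 0.37 (95% CI 0.10 to 0.64, adjusted p = 0.17) for A_24_P237661. A_24_P237661 and A_24_P204214 start 42 bases apart. The former is the dimmer, with control readings of 39.5 to 68 against 564 to 627.5. The last NCOR1 probe, A_24_P911017, was not above background in either channel on any array. The array also holds a probe for a locus described as similar to NCOR1, so signal at NCOR1 probes may include that copy.

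Of the 14 probes of the family, the NCOA2 probe and NCOR1 A_24_P911017 had no control signal. Among the rest, 3 were at least 2-fold lower on the FaDu miR-489 array and 4 on the HSC3 miR-489 array, against 8.01% and 7.64% of all probes with control signal. These were the neighbouring NCOA3 probes and, in HSC3 cells, the dim CREBBP probe A_24_P342279. As NCOA3 was chosen for its low value in FaDu cells, the FaDu count is a description. No family probe was 2-fold lower on the miR-504 arrays, where 5.52% of all probes were in FaDu and 4.67% in HSC3 cells. No probe of the family was at least 2-fold higher on any array, against 2.88% and 2.29% of all probes in FaDu cells (miR-489, miR-504) and 2.77% and 1.89% in HSC3 cells. With normexp correction, or without background subtraction, the count of lower probes on each miR-489 array was 1, which was A_23_P313560. Of the 8 fitted probes of genes other than NCOA3, none passed limma's adjusted threshold for the difference between the miRNAs, against 1.1% of all probes. Of the 8, 1 probe, NCOR1 A_24_P237661, had p under 0.05 without adjustment, as did 18.5% of all probes, and none was called with the cell line as a block, against 2.76% of all probes.

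**Figure D3:**
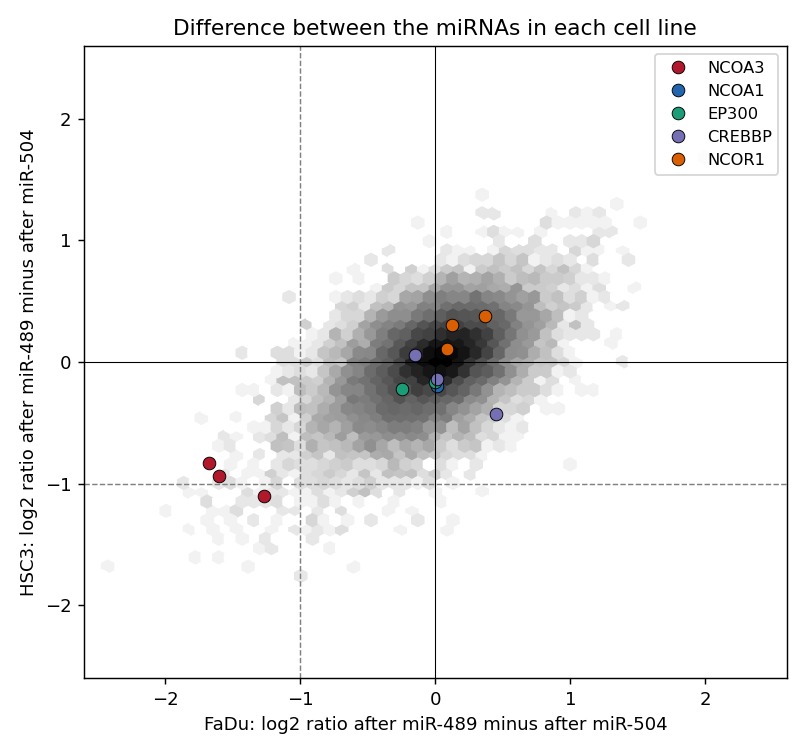
Log2 ratio after miR-489 minus that after miR-504 in FaDu (x axis) and HSC3 cells (y axis), for all probes with control signal on all 4 arrays (grey, darker where probes are denser, on a log scale of counts) and for the probes of NCOA3, NCOA1, EP300, CREBBP and NCOR1 (coloured), with dashed lines at 2-fold lower. The NCOA3 probes lie at −1.67 to −1.27 in FaDu and −1.10 to −0.83 in HSC3 cells, away from the other members. Of these the dim CREBBP probe A_24_P342279, whose control signal fell short on 1 array, lies farthest from 0, at 0.45 and −0.43.

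The control-transfected cells of the lines also differed in this family, most at the acetyltransferases. After each array's Cy3 signals were centred on their median, EP300 was lower in HSC3 than in FaDu cells by a log2 difference of −1.44 for A_23_P40693 and −0.99 for A_24_P7887. CREBBP was lower by −1.31 for A_23_P163850, −0.79 for A_24_P322025 and −0.47 for A_24_P342279. The readings of A_23_P40693 were 158.5 and 161 in FaDu and 57 and 82.5 in HSC3 cells, and those of A_23_P163850 were 399.8 and 362.85 in FaDu and 162.05 and 196.95 in HSC3 cells. The lines did not overlap at either probe, but both HSC3 readings were below both FaDu readings, after centring, at 43.4% of all probes. NCOA3 was lower in HSC3 cells by −0.28, −0.35 and −0.37 at its probes, NCOA1 differed by −0.0063, and the NCOR1 probes by −0.19, 0.020 and 0.22. Among all probes, 13.2% were at least 2-fold lower in HSC3 control cells and 11.8% at least 2-fold higher. The line difference of EP300 was also present in the Cy5 channel, at −1.98 after miR-489 and −1.71 after miR-504 for A_23_P40693. With Cy3 readings that may share an extract, no test was made of the lines.

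**Figure D4:**
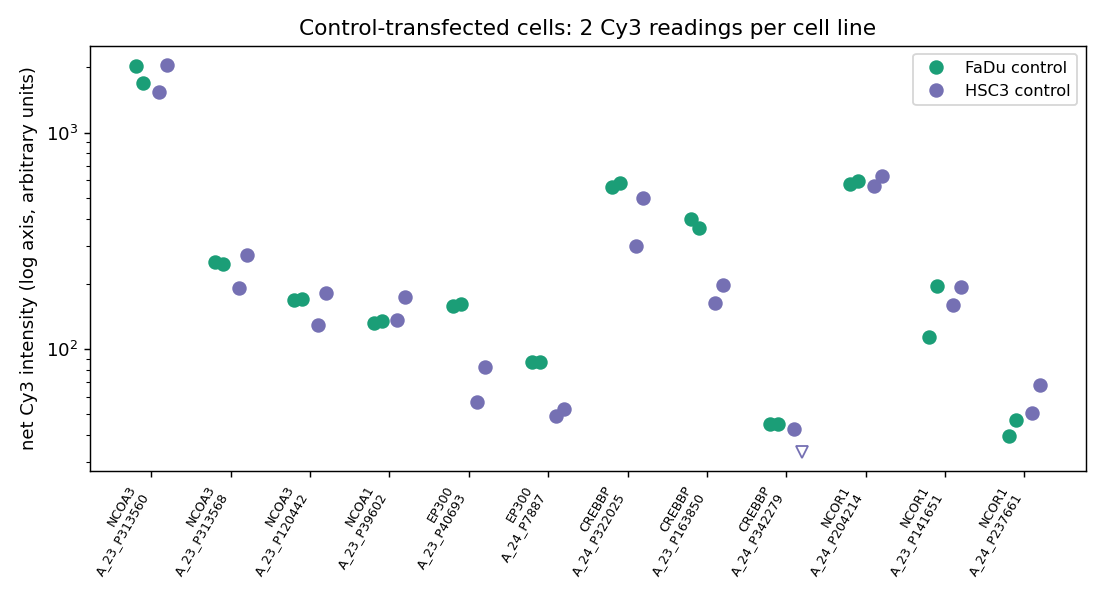
Net Cy3 intensity (log axis, arbitrary units) of each measured probe in control-transfected FaDu and HSC3 cells, 2 readings for each line, before any scaling between arrays. The open triangle was not well above background. FaDu reads above HSC3 at both EP300 probes, for example 158.5 and 161 against 57 and 82.5 for A_23_P40693. Levels of different probes are not comparable with each other.

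The genes of the receptors that these coactivators serve had about the share of lower genes seen over the whole array. Of 24 nuclear receptor genes looked up, 15 to 17 were above background in control RNA, and each array had 1 of them at least 2-fold lower, against 8.82% and 5.98% of all genes in FaDu cells (miR-489, miR-504) and 8.17% and 5.1% in HSC3 cells. The estrogen receptor gene ESR2, the progesterone receptor gene PGR and the mineralocorticoid receptor gene NR3C2 were not above background on any array. ESR1 was dim, above background in the control RNA of both FaDu arrays and in the transfectant RNA of 1 array. Among receptors with control signal on all 4 arrays, RARA, which encodes a retinoic acid receptor, had the highest mean ratio, at 1.25 and 0.72 in FaDu cells and 0.83 and 0.58 in HSC3 cells (miR-489, miR-504). NR2F1, an orphan receptor, had the lowest among them, at −0.83 and 0.18 in FaDu and −1.42 and −1.18 in HSC3 cells. It was dim too, with a mean control reading of 40.6 and transfectant signal above background on 3 arrays. The receptor counted as lower was NR2F1 on the HSC3 arrays and ESR1, at −1.55 and −1.30, on the FaDu arrays. The counts therefore rest on dim probes.

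Other coactivators, 21 genes, held 2 genes at least 2-fold lower on the FaDu miR-489 array and 1 on the HSC3 miR-489 array, of 20 with control signal on each, against 8.82% and 8.17% of all genes. None was lower on the miR-504 arrays. At least 2-fold higher were 1 gene on each FaDu array and 3 on the HSC3 miR-489 array, and none on the HSC3 miR-504 array, of 20 with transfectant signal on each, against 2.86% and 2.34% of all genes in FaDu (miR-489, miR-504) and 2.7% and 1.97% in HSC3 cells. MED12, a subunit of the Mediator complex that links activators to RNA polymerase, was lower on both miR-489 arrays, at −1.08 in FaDu and −1.07 in HSC3 cells, with −0.59 and −0.28 after miR-504. MED1, the Mediator subunit that binds nuclear receptors directly, had −0.999 and −0.92 after miR-489 and −0.72 and −0.70 after miR-504. NCOA7 and ASCC2 lay highest in this list. NCOA7 had 0.88 and 1.19 in FaDu and 1.05 and 0.70 in HSC3 cells. The median of the list was 0.17 to 0.31 on the 4 arrays, against −0.034 to −0.013 for all genes. Such a shift was not particular to this list. Medians were 0.22 to 0.43 for acetyl- and methyltransferases, 0.25 to 0.42 for the NCOA3 turnover genes and 0.11 to 0.20 for nuclear receptors. They were 0.079 to 0.27 for the corepressor complex and −0.10 to 0.15 for receptor target genes. The IGF, AKT and E2F1 genes had −0.13 to −0.0089.

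The corepressor complex, 16 genes, and the acetyl- and methyltransferases, 14 genes, held no gene at least 2-fold lower on any array. The shares of all genes, 5.1% to 8.82%, are too small for a list of this size to tell such a count from the background. TBL1XR1, a subunit of the NCOR1 complex, and NRIP1, a corepressor of ligand-bound receptors, had the lowest means. NRIP1 had −0.83 in FaDu and −0.69 in HSC3 cells after miR-489, and −0.0093 and −0.24 after miR-504. KDM1A, a histone demethylase, was highest, at 1.02 and 0.67 in FaDu and 0.92 and 0.64 in HSC3 cells. Among the transferases PRMT5, an arginine methyltransferase, was highest, at 0.97 and 0.53 in FaDu and 0.95 and 0.71 in HSC3 cells.

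Of 22 genes on which receptors act, 12 to 15 had control signal, and 1 was at least 2-fold lower on each array, near the shares of all genes (8.82% and 5.98% in FaDu, 8.17% and 5.1% in HSC3 cells). The lower gene was a different one on each array, so no gene of this list was lower on more than a single array. KLK3 had the lowest mean ratio of the list, at −0.91, and DHRS3 the highest, at 0.96. FKBP5, a glucocorticoid-responsive gene with a less low mean of −0.56, had −0.22 and −0.54 in FaDu and −0.15 and −1.31 in HSC3 cells. SGK1, another such gene, had 1.37 and 0.63 in FaDu and 0.52 and 0.64 in HSC3 cells. Of 16 genes of the IGF, AKT and E2F1 routes, with which NCOA3 has been linked, all with control signal, 2 and 3 were at least 2-fold lower in FaDu and 2 and 1 in HSC3 cells (miR-489, miR-504), against the same shares. CCNE1, which encodes cyclin E, had −1.06 and −1.04 in FaDu and −1.33 and −0.99 in HSC3 cells. IGFBP4, which binds IGF, had −1.31 and −1.22 in FaDu and −1.01 and −1.14 in HSC3 cells.

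Among 13 genes for the turnover and phosphorylation of the NCOA3 protein, the one with the lowest mean was FBXW7, the substrate-binding subunit of a ubiquitin ligase for NCOA3. It had −1.45 and −1.13 in FaDu and −1.10 and −0.94 in HSC3 cells. The highest was PSME3, an activator of the proteasome, at 1.18 and 1.22 in FaDu and 1.10 and 1.14 in HSC3 cells. Over the 7 lists, none of the 100 genes fitted passed limma's adjusted threshold between the miRNAs, against 1.1% of all probes. Without adjustment 23 had p under 0.05 in limma, near the 18.5% of all probes that did. With the cell line as a block 1 passed, against 2.76% of all probes. These counts do not set the lists apart from other probes. The gene that passed was TRIP4, another coactivator, higher after miR-489 by 0.88 (adjusted p = 0.040 in limma, and 0.053 without the block).

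The 5 genes whose 4 ratios lay nearest to those of A_23_P313560, among 15609 genes by Euclidean distance on the log2 scale, were RRP22, ATP9A and 3 transcripts named on the array as ENST00000297145, THC2303869 and BX647075. RRP22 was nearest, at a distance of 0.30, with −2.10 and −0.060 in FaDu and −1.49 and −0.83 in HSC3 cells. ATP9A had −1.81 and −0.48 in FaDu and −1.64 and −0.56 in HSC3 cells.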

How the data were processed

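Each array compared Cy5-labelled miRNA transfectants with Cy3-labelled control transfectants on a human 44K design. The authors deposited scanner output made with Agilent Feature Extraction 9.5.3.1, whose spot intensities are on a linear scale with a local background, and whose log ratios are log10 of Cy5 over Cy3. The deposited series values were identical to those log10 ratios. Intensities have no read depth, and precision is set by how few arrays there are.

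Log2 ratios were computed in R 4.3.3 from the median spot intensity minus the median local background, after the study's stated method, averaged over the spots of a probe without outlier-marked spots, and centred on the median of probes well above background in both channels. A probe was called lower with a log2 ratio of −1 or below and Cy3 well above background, and higher at 1 or above with Cy5 well above background. A channel was well above background where at least 0.5 of a probe's spots were so marked. No spot was saturated. Genes in lists were read at their brightest probe. The miRNAs were compared with limma 3.58.1 across all probes with Cy3 signal on all 4 arrays, Benjamini-Hochberg adjusted, threshold 0.05, without a block. On simulated data of 20914 probes that fit recovered 94 of 100 changes of 2 and 36 of 100 changes of 1 on the log2 scale, with 9 false calls, and with the block 85 and 1. The simulated noise held no cell line effect, so the simulation does not show which fit suits these arrays. The arrays pair by cell line, and deviations of arrays of the same line from their miRNA mean correlated at 0.136. In the data the block raised the number of probes called from 230 to 578. Alternatives were other background corrections (normexp with offset 50), loess (span 0.3), scaling, filters, thresholds, the cell line block and leaving out each array.

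Every probe of the members was named, with up to 3 genes at each end of each list by mean ratio, and the 5 genes nearest to NCOA3, except ESR1, ESR2, PGR and NR3C2, which were named for their low signal, and TRIP4, named for its call with the block, after their values were seen. Members and lists were chosen with earlier results of these data known. All 7 member symbols matched RefSeq. Figures were drawn with matplotlib.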

Additional observations from a re-analysis of the deposited data

Results flagged for a closer look

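The NCOR1 probe A_24_P237661 was above the control after miR-489 in both lines and below it after miR-504 in both lines, a log2 difference of 0.373 (SE 0.11) between the miRNAs. In limma its p was 0.016, and 0.17 after adjustment over all probes, so the difference did not pass the threshold. Its control readings, 39.5 to 68, were the lowest among the NCOR1 probes with a ratio. Against the control its sign turned under 2 or 3 of the 8 settings on each array, while the difference between the miRNAs stayed above 0 in both lines under all 8. How many of all probes split between the miRNAs in this way was not counted.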

How the results depend on the processing

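The counts of lower probes changed with the removal of background, the filter on dim probes and the threshold. On the FaDu miR-489 array 3 probes of the family were at least 2-fold lower, and 1 with normexp correction, without background subtraction, or with normexp and loess, 5 without the filter on dim probes and 0 at 4-fold. On the HSC3 miR-489 array the count of 4 became 1 with normexp, without subtraction, or with normexp and loess, 2 with loess, the scanner ratios or the series values, and 0 at 4-fold. On the miR-504 arrays the count of 0 became 2 in FaDu and 1 in HSC3 cells without the filter, and 2 in each at 1.5-fold. At 1.5-fold 1 probe, NCOA1, was higher on each array.

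The brightest NCOA3 probe on the FaDu miR-489 array moved from −1.96 to −1.82 with normexp, −1.75 without subtraction, −2.11 with loess, −2.18 with total-signal scaling and −2.14 on the scanner ratios or series values. The mean over NCOA3 probes there was −1.43 and the median −1.26. On the HSC3 miR-489 array −1.62 became −1.50, −1.41, −1.76, −1.80 and −1.77 in the same order, with mean −1.29 and median −1.12. On the FaDu miR-504 array −0.29 became −0.14 without subtraction, −0.39 with loess, −0.47 with total-signal scaling and −0.38 on the scanner ratios or series values, with mean 0.086 and median 0.21. On the HSC3 miR-504 array −0.78 became −0.65, −0.91 and −0.97 with the first 3 of these, with mean −0.33 and median −0.18. Total-signal scaling lowered the median of all probes by a log2 shift of −0.21 to −0.18.

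In the limma comparison of the miRNAs 1 probe of the family passed the threshold, A_23_P120442 of NCOA3. With the cell line as a replicate block 2 passed, and 578 probes in all (2.76%) in place of 230. With normexp, without subtraction, or with normexp and loess 3 passed. With all probes in the fit no probe of any gene passed, so that fit cannot set members apart from other probes. Fits that leave out an array hold a single array for a miRNA, so their calls are not read. Under the rest of the 14 alternatives no probe of another member passed. NCOA3 was chosen on one of these arrays, so its calls are not independent support. The cause of these changes was not tested. The other alternatives kept the count or value within the limits of 1.5-fold and the spot-to-spot SD.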
